A study of Mus musculus with 16 samples.

Results

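The DNA replication and G1/S genes were 39 genes, chosen by name from the 52542 gene entries counted in each of 16 mouse single-cell libraries. They comprised 11 genes of origin licensing and the replicative helicase, 14 of the polymerases, the sliding clamp and the fork, 5 of nucleotide supply and uracil repair, 4 of replication-linked chromatin and 5 of cyclins and the checkpoint. They were measured by MARS-seq, which tags the 3' end of each captured mRNA molecule with a unique molecular identifier (UMI), in LSK cells (Lin-Sca1+Kit+). LSK cells are the part of bone marrow in which haematopoietic stem cells and multipotent progenitors are found. Fetal liver cells of control donors (CD45.1) and of Regnase-1-/-Regnase-3-/- donors (CD45.2), which lack a pair of RNases that degrade mRNA, had been mixed 1:1. The mixture was transplanted into lethally irradiated CD45.1/CD45.2 hosts of strain C57BL/6J, and LSK cells were sorted 4 weeks later. All libraries share this treatment and form a single group. The sources used here do not say which genotype a library or well holds, nor whether host cells were gated out, so no genotypes were compared. The number of mice behind the libraries is not given either, so p-values measure the spread between these libraries, which may be technical.

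The kept cells had at least 500 UMIs and a mitochondrial share under 20%, and wells listed as empty were left out. This left 5157 cells, 295 to 345 per library, with 500092 to 810096 UMIs per library and 10437310 in all. Library medians lay between 1146 and 1993 UMIs per cell, and 0 cell barcodes were shared between libraries. The well table names sequencing batch SB341 for 9 libraries and SB343 for 6, and names none for library 1. Marker genes of other cell types were summed by list, with library medians in CPM (UMIs per 1000000 UMIs of the library). The neutrophil and macrophage list stood at 30.2, the B cell list at 78.3 and the T and NK cell list at 150.5. The erythroid and platelet list stood at 199 and the endothelial and stromal list at 56.0. Of these markers, Fcmr, Cd3d, Cd3e, Alas2, Cdh5 and Lepr had 0 UMIs. All the others had UMIs, so cells of other types are not excluded.

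Before S phase, the Mcm2 to Mcm7 helicase is loaded onto origins with the help of Cdc6 and Cdt1, and it is switched on by binding Cdc45 and the GINS complex. DNA polymerases then copy both strands with the Pcna clamp, while nucleotide synthesis supplies dNTPs and histones package the new DNA. Transcription of many of these genes is under E2F control around the G1/S boundary, and haematopoietic stem cells are known to cycle less than the progenitors they give rise to.

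The promoters of the members were searched because E2F control is what these genes are best known to have in common. In the 250 bases before each start in the RefSeq promoter table (GRCm38.p6), 32 of the 39 members were matched, with 37 starts. The E2F spellings TTTGGCGC, TTTCGCGC, TTTCCCGC and TTTGCCGC, on either strand, occurred in 9 of the 32 (28.1%), against 2.16% of 27025 genes in the table. By role, they occurred in 4 of 8 licensing and helicase genes, 2 of 11 polymerase and fork genes, 0 of 5 nucleotide genes, 2 of 4 chromatin genes and 1 of 4 cyclin and checkpoint genes. The CCAAT box occurred in 19 of 32 (59.4%, against 37.5%), and TTTGAA, the CHR element of mitotic promoters, in 3 of 32 (9.38%, against 18.3%). Both strands were searched, and none of these motifs can lie inside another. A match is a description of letters and not a tested site. The windows of 7 matches are shown, for the Mcm genes and the chromatin and checkpoint members that are followed below, 5' to 3' on the strand of the gene, with the E2F spellings in capitals. They lie at chr8:75109345-75109374 (+ strand, Mcm5), chr1:128359797-128359826 and chr1:128359734-128359763 (- strand, Mcm6, the distal and the proximal match), chr5:138172030-138172059 (- strand, Mcm7), chr11:98908002-98908031 (+ strand, Cdc6), chr19:38930917-38930946 (+ strand, Hells) and chr1:191575545-191575574 (- strand, Dtl).
Mcm5: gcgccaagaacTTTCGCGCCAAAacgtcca
Mcm6, distal: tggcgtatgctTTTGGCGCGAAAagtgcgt
Mcm6, proximal: gattggacgggTTTGGCGCgaagtagctca
Mcm7: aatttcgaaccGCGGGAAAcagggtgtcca
Cdc6: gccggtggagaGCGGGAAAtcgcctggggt
Hells: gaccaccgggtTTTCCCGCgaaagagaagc
Dtl: caatcagaaagcgtgacgtcagTTTGGCGC
The capitals of Mcm5 and of the distal Mcm6 match hold 2 overlapping spellings, 1 on each strand. Counted back from the start, the first capital stood at base 153 in Mcm5, 110 and 47 in Mcm6, 165 in Mcm7, 138 in Cdc6, 62 in Hells and 8 in Dtl. These starts are those of RefSeq. In the GENCODE annotation of the same build, the Mcm7, Cdc6 and Hells windows lie inside the gene. The windows of Mcm5, Mcm6 and Dtl lie before it. Rfc3, Pola1 and Uhrf1 were the other members with a match.

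Together the 39 members had 45074 UMIs, 0.432% of all UMIs, and each was found in at least 1% of the cells. Their summed level was much the same from library to library, with a lowest value of 4015 CPM (library 6), a median of 4290 and a highest value of 4664 (library 11), a ratio of 1.16. CPM values use the UMIs of the kept cells as the total and are not divided by transcript length because each molecule is tagged once at its 3' end. In such sums, fewer cells expressing a gene and less RNA per cell cannot be told apart. Orders of genes by CPM are orders of counted UMIs. Overlapping or similar entries, described below for Mcm7 and Pcna, make some of these counts uncertain. Pcna, Mcm6 and Dut together held 26.45% of the members' UMIs. Most of the spread of single members between libraries was small but larger than counting noise: the chi-square statistic per degree of freedom over the 16 libraries had a median of 1.89 (1.23 to 6.67, the highest for Pcna), against 1.80 over the 11218 genes with at least 50 UMIs.

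Among the licensing and helicase genes, summed at 1162, 1338 and 1441 CPM (lowest, median and highest library), the subunits of the Mcm helicase differed widely in level. Mcm6 was the highest, at 306, 360.5 and 424 CPM, with a UMI in 38.5% of the cells. Mcm3 followed with 181, 206 and 258 CPM and Mcm5 with 158, 199 and 276.5 CPM, 2 ranges that overlap almost fully. Mcm4 (101, 142 and 175 CPM) and Mcm2 (110, 134 and 177 CPM) overlapped each other in the same way and lay below Mcm6 in every library. Mcm7 stood apart from the other 5 subunits with 99 UMIs in all, at 0, 7.80 and 25.9 CPM, and its count of 0 in library 4 limits it there to at most 5.31 CPM. The loading factors Cdt1 (53.5, 75.9 and 103 CPM) and Cdc6 (7.999, 38.2 and 54.9 CPM) had lower medians than the 5 abundant Mcm genes, as did the helicase activators Cdc45 (22.9, 36.7 and 50.9 CPM), Gins1 (33.5, 42.9 and 93.8 CPM) and Gins2 (38.6, 53.5 and 91.5 CPM).

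Mcm7 shares its place with another entry of the count table. It lies at chr5:138164583-138172422 on the - strand (mm10), and the miRNA gene Mir25, at chr5:138165321-138165404 on the same strand, lies inside it. The Mir25 entry held 2561 UMIs, with 195, 234.5 and 340 CPM in the lowest, median and highest library, while the neighbouring miRNA genes Mir93 and Mir106b had 0. How the authors' counting assigned a read that falls in both entries is a step that the sources used here do not describe, so the levels of both are uncertain. Cops6, at chr5:138161071-138164646 on the opposite strand, overlaps the 3' end of Mcm7 and had 870 UMIs. The strand setting of the counting is not given either, and the part of Cops6 in the Mcm7 count was not tested. Of the 39 members, 18 overlapped another entry, 13 an entry with a UMI and 5 a same-strand entry with a UMI, but Mcm7 alone had fewer UMIs than its same-strand neighbour.

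The polymerase, clamp and fork genes summed to 1662, 1750 and 1894 CPM. Pcna, the sliding clamp, was the highest of all members at 349, 501 and 549.5 CPM, with a UMI in 44.8% of the cells. The clamp loader subunit Rfc2 stood at 112, 162 and 210 CPM, above Rfc4 (61.9, 80.8 and 129 CPM) and Rfc3 (40.7, 58.7 and 83.2 CPM). The single-strand binding subunits Rpa1, Rpa2 and Rpa3 had medians of 96.7, 100.2 and 117 CPM and overlapping ranges. Pold1 and Pole, the catalytic subunits of the lagging- and leading-strand polymerases, had medians of 78.9 and 54.3 CPM, Pola1 of 46.6 and the primase Prim1 of 99.3. Lig1, which seals Okazaki fragments, stood at 103, 138 and 174 CPM, Fen1, which trims their flaps, at 87.3, 124.5 and 168 CPM, and Tipin, a fork protection protein, at 99.2, 113 and 164 CPM.

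A processed pseudogene, Pcna-ps2 (chr19:9283380-9284160, + strand), had 1312 UMIs of its own, at 30.02, 136 and 282 CPM. As a near copy of the Pcna mRNA it could hold reads of Pcna, so the level of Pcna is uncertain by that amount. Its part in the Pcna level was not tested.

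Of the nucleotide genes, summed at 663, 776 and 884 CPM, Dut, the dUTPase that keeps uracil out of DNA, was the highest at 256, 313 and 373 CPM. The large subunit of ribonucleotide reductase, Rrm1 (142, 213 and 252.5 CPM), lay above the small subunit Rrm2 (52.9, 92.7 and 123 CPM) in every library. Tyms, thymidylate synthase, stood at 79.7, 119 and 148 CPM, and Ung, which removes uracil from DNA, at 18, 41.8 and 73.1 CPM. The chromatin genes summed to 214, 271 and 357 CPM, with medians of 92.4 for the helicase Hells, 82.4 for Uhrf1, which brings DNA methylation to new strands, and 51.1 and 49.8 for the histone chaperone subunits Chaf1a and Chaf1b. The cyclin and checkpoint genes summed to 148, 183 and 241 CPM. Dtl, which targets Cdt1 for destruction in S phase, was the highest of these at a median of 85.6 CPM, ahead of the checkpoint kinase Chek1 (38.1), the histone mRNA binding protein Slbp (25.3), cyclin E2 (Ccne2, 18.9) and cyclin E1 (Ccne1, 6.24, 89 UMIs in all).

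**Figure D1:**
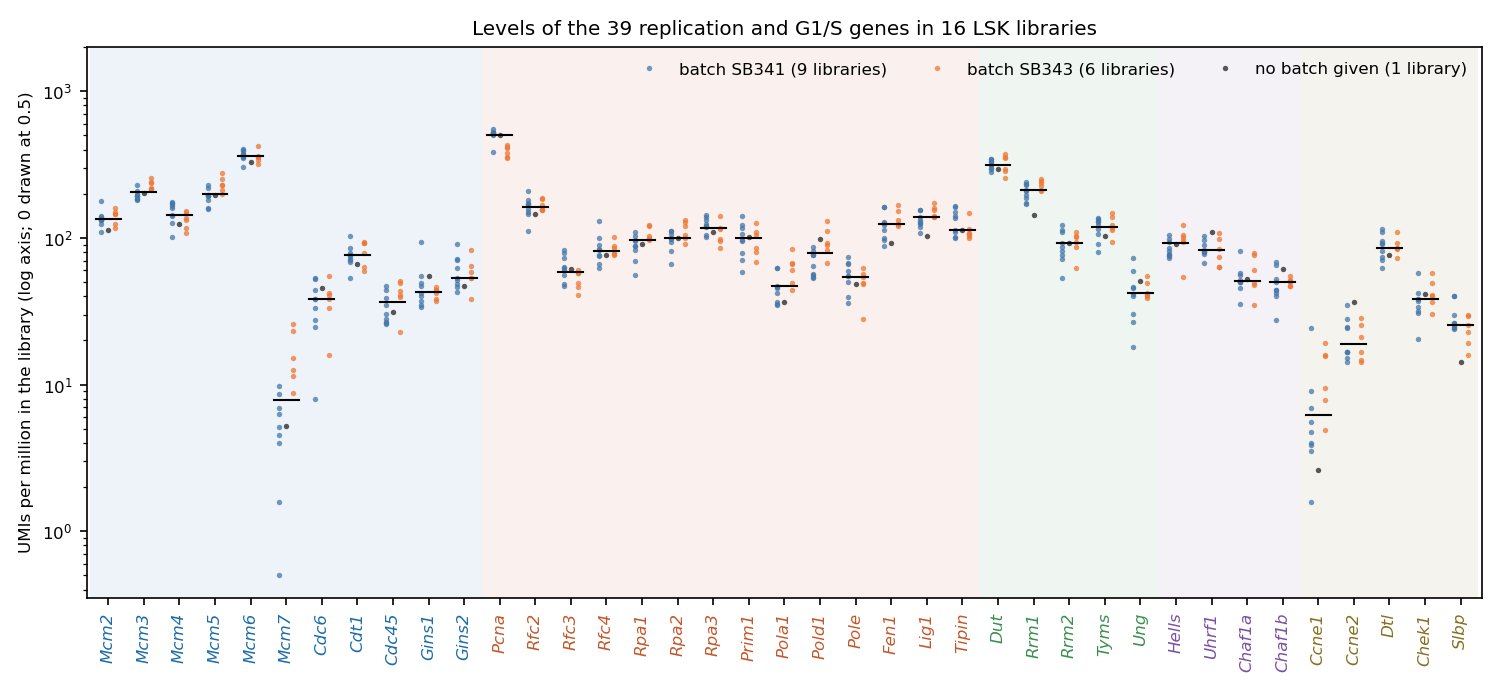
Level of each of the 39 members in each library, in CPM on a log axis. Points are libraries, marked by sequencing batch, and members are ordered by role. Pcna, Mcm6 and Dut are the highest, and Mcm7 and Ccne1 fall to a few CPM.

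Other genes of the pathway were described from 3 lists. The 52 other replication genes summed to 3547, 3982 and 4514 CPM, the 30 G1/S control genes to 2099, 2351 and 2836 CPM and the 19 genes of replication-coupled repair to 842, 1050 and 1207 CPM. Replication-dependent histone genes, 61 in number and expressed in S phase, summed to 1680, 2123 and 2734 CPM, and 44 mitotic genes to 2795, 3911 and 4932 CPM. The mitotic sum varied more between libraries (ratio 1.76) than the members' sum (1.16). It separated by sequencing batch: all SB343 libraries (4125 to 4932 CPM) lay above all SB341 libraries (2795 to 3980 CPM).

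The libraries of the 2 sequencing batches were then compared, the only technical label recorded for them. Batch may coincide with mouse or genotype and cannot be told apart from them. Most members did not pass the test. Pcna was lower in SB343: the SB343 libraries lay at 349, 395.5 and 429.5 CPM and the SB341 libraries at 386, 516 and 549.5, and 8 of the 9 SB341 libraries lay above all SB343 libraries, the exception being library 4. Its log2 fold change was -0.43 (SE 0.09, adjusted p 0.00113, edgeR quasi-likelihood test, Benjamini-Hochberg adjusted over all genes). Mcm7 was higher in SB343, with 8.77, 13.95 and 25.9 CPM against 0, 5.16 and 9.73 CPM, and 5 of the 6 SB343 libraries lay above all SB341 libraries. Its log2 fold change was 1.53 (SE 0.39, adjusted p 0.00691 by the same test), while the Mir25 entry differed by 0.09 and did not pass. With filterByExpr, Mcm7 was not tested, and Pcna was the 1 member called of 37 tested (12.6% of 8017 genes). With the minimum of 50 UMIs, 2 were called of 39 tested, where 11.5% of 11029 genes were called (4.18% higher and 7.28% lower), so the members' share lay below that of all genes. Scaled to library totals, Pold1 was called too, at 0.50 (adjusted p 0.0274), against 0.44 (adjusted p 0.0591) with TMM factors, and 12.1% of all genes were called. The members' median log2 fold change was -0.00.

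Beside the fall of Pcna, its pseudogene Pcna-ps2 was lower in SB343 by more, at 30.02, 37.55 and 282 CPM against 114, 148 and 248 CPM, with a log2 fold change of -1.15 (adjusted p 0.0234 by the same test). Library 15 was the high SB343 library. Summed, Pcna and Pcna-ps2 stood at 379, 452 and 639 CPM in SB343 and 582.5, 649 and 750 CPM in SB341, and 7 of the 9 SB341 sums lay above all SB343 sums. Of the other pathway genes, Supt16, a subunit of the FACT histone chaperone, was higher in SB343 (0.55, adjusted p 0.00121), as were the G1 kinase Cdk6 (0.34, adjusted p 0.0234) and the helicase Blm (0.64, adjusted p 0.0367). The S phase kinase Cdk2 (-0.91, adjusted p 0.00632) and the origin recognition subunit Orc5 (-0.84, adjusted p 0.0450, and 0.0633 with library totals) were lower. That made 1 higher and 1 lower of 52 other replication genes, 1 and 1 of 29 G1/S control genes, and 1 and 0 of 19 repair genes. The 43 tested mitotic genes held 7 higher and 0 lower, and the 25 tested histone genes 6 higher and 1 lower. Comparisons below were made within libraries, with the library as a block.

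Lineage-gated cells were compared next, to see whether LSK cells that carry transcripts of different lineages differ in replication genes. A cell entered a gate with at least 2 UMIs of that gate's markers and at most 1 of each of the other 3 lists. This gave 455 stem-gated, 719 granule-gated, 752 lymphoid-gated and 248 megakaryocyte-erythroid-gated cells, while 2983 cells entered no gate. The gates held their own markers: Hlf had 468 UMIs in stem-gated cells against 73, 65 and 14 in the granule-, lymphoid- and megakaryocyte-erythroid-gated cells, Mpo had 1774 in granule-gated cells against at most 128 elsewhere, Dntt 2054 in lymphoid-gated cells against at most 41, and Pf4 340 in megakaryocyte-erythroid-gated cells against at most 14. Of the markers, Fcnb, Ltf and Cd79a had 0 UMIs in all 4 gates, and Hoxb5 had 0 in stem-gated cells. Cells of a pair of gates were matched in total UMIs (within 10%) within each library and summed, for libraries with at least 10 matched pairs. The comparisons with stem-gated cells share those cells, and the comparisons with granule- or lymphoid-gated cells share theirs.

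The summed members were higher in granule-gated than in matched stem- or lymphoid-gated cells in most libraries, though the libraries overlapped. In 285 granule-gated and 285 stem-gated cells of 15 libraries, the lowest, median and highest sums were 2837, 4921 and 6418 CPM against 2591, 3843 and 5507 CPM, and the granule-gated sum was higher in 10 of 15. In 420 granule-gated and 420 lymphoid-gated cells of 15 libraries they were 3491, 4525 and 5984 CPM against 3081, 3833 and 5107 CPM, higher in 12 of 15. In 412 lymphoid-gated and 412 stem-gated cells they were 2809, 3717 and 4435 CPM against 2979, 3759 and 5412 CPM, higher in 4 of 15. In 115 megakaryocyte-erythroid-gated and 115 stem-gated cells of 10 libraries they were 3067, 4549 and 6863 CPM against 2431, 4374 and 5878 CPM, higher in 6 of 10. The ranges overlap widely in each of the 4 comparisons.

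**Figure D2:**
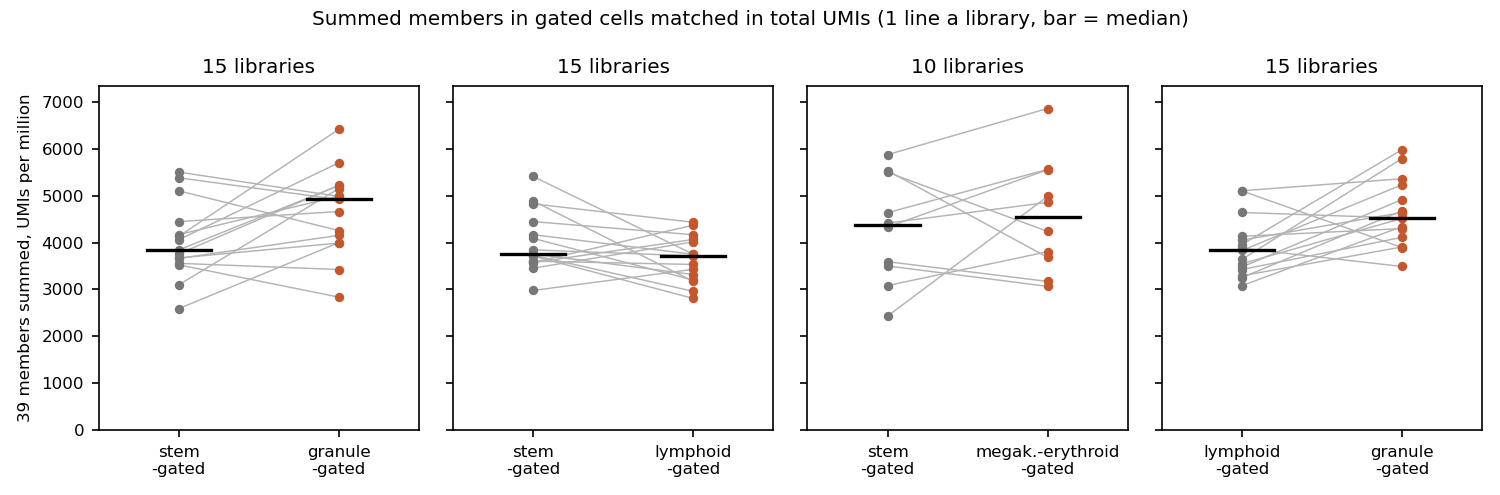
Summed level of the 39 members, in CPM, in cells of 2 gates matched in total UMIs. Each line joins the 2 sums of one library, in 4 panels for the 4 comparisons. The granule-gated sum lies above the lymphoid-gated sum in 12 of 15 libraries, and the lines cross in the other panels.

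No single member passed the test between lineage gates. By the edgeR quasi-likelihood test (Benjamini-Hochberg adjusted), 0 of 27 tested members were called in granule- against stem-gated cells, where 0.489% of 3070 genes were, and DESeq2 also called 0. Unadjusted, 1 member had p under 0.05 there, against 7.3% of all genes. In granule- against lymphoid-gated cells 0 of 36 members were called by either tool (0.888% of 4618 genes by edgeR), and 5 had an unadjusted p under 0.05, against 7.95% of all genes. The 5 were all higher in granule-gated cells. In lymphoid- against stem-gated cells 0 of 31 were called by either tool (1.26% of 4204 genes by edgeR), with 0 at an unadjusted p under 0.05 against 8.4% of all genes. In megakaryocyte-erythroid- against stem-gated cells 0 of 15 were called by either tool (1.01% of 1290 genes by edgeR), with 0 at an unadjusted p under 0.05 against 8.29%. Without matching in total UMIs, Dut (0.55) and Mcm5 (0.77) were called higher in granule- than stem-gated cells, where 1.49% of 6188 genes were called. Within SB341 alone and within SB343 alone, 0 members were called in each of the 4 comparisons. With 2-fold changes put into simulated counts of these comparisons, 38% to 54% of the changed genes were recovered. A member that did not pass is therefore not shown to be equal between gates. The simulated counts had a fixed dispersion and differed between libraries in depth only, so this share is not the recovery of the members.

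The members with an unadjusted p under 0.05 in either comparison of granule-gated cells were Pcna, Lig1, Rfc2, Dut and Chek1. Pcna stood at 231, 616 and 1017 CPM in granule-gated and 242, 402 and 814 CPM in matched stem-gated cells, higher in 13 of 15 libraries, with a log2 difference of 0.36 (SE 0.16, edgeR's quasi-likelihood test, adjusted p 0.560). Against lymphoid-gated cells Pcna differed by 0.24 (SE 0.12), Lig1 by 0.65 (SE 0.25), Rfc2 by 0.48 (SE 0.22), Dut by 0.31 (SE 0.16) and Chek1 by 1.01 (SE 0.52), with adjusted p-values of 0.336 to 0.625 in the same test. Some sparser members had larger differences with wide errors, such as Rfc3 (-0.89, SE 0.50, adjusted p 0.794 by edgeR) in granule- against stem-gated cells and Cdt1 (-0.72, SE 0.38, adjusted p 0.629 by edgeR) in lymphoid- against stem-gated cells. Over the tested members, 18 of 27 log2 differences were positive in granule- against stem-gated cells (median 0.18, against -0.01 over all genes) and 28 of 36 in granule- against lymphoid-gated cells (median 0.23, against 0.00). They were negative for 21 of 31 in lymphoid- against stem-gated cells (median -0.21, against -0.03; without matching in total UMIs, the median was 0.09) and positive for 8 of 15 in megakaryocyte-erythroid- against stem-gated cells (median 0.08, against 0.02). Of the other pathway genes, Cdk6 was higher in granule- than lymphoid-gated cells (0.46, adjusted p 0.0284), 1 called of 11 G1/S control genes. Of the 34 other replication genes and 10 repair genes tested there, 0 were called by edgeR and 0 by DESeq2, with 4 and 0 at an unadjusted p under 0.05 in edgeR. Of the 32 mitotic genes tested, 2 were lower in granule-gated cells, Cdk1 and Ube2c, which were named after their values were seen.

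Cells were next compared by cell cycle state, defined by genes outside the members. Each cell with at least 1000 UMIs was thinned to 1000, which kept 3840 cells and left out 1317. Within each library, histone-high cells lay above the 80th percentile of summed UMIs of the histone list and not above that of the mitotic list, mitotic-high cells lay above the 80th percentile of the mitotic list, and low cells lay at or below the 50th percentile of both. These are ranges of a score and not cell types: 707 cells (18.4%) lay within 1 UMI of the histone threshold, which was 2 to 5.2 UMIs over libraries, and 514 (13.4%) within 1 UMI of the mitotic threshold of 5 to 8 UMIs. The sets held 1636 low, 455 histone-high and 690 mitotic-high cells, and 1059 cells fell in none. Histone-high cells held a median of 4 UMIs of the mitotic list, against 0 in low and 10 in mitotic-high cells. A single gene, Hist1h2ao, held 57.4% of the UMIs of the histone list. Before thinning, the low cells had a median of 1663 UMIs, the histone-high cells 2680 and the mitotic-high cells 2635. Results are therefore also given for cells matched in total UMIs. This alternative was added after the data were seen, as was the comparison of mitotic-high with histone-high cells. Matching kept 397 histone-high with 397 low cells, 564 mitotic-high with 564 low cells, and 400 mitotic-high with 400 histone-high cells. The matched sums thus held fewer cells. Whether a call lost there came from depth or from fewer cells was not tested.

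A thinned cell had a median of 3 member UMIs and a mean of 4.225, with 1 and 9 at the 10th and 90th percentiles and 20 at most. There were 342 cells (8.91%) with 0 member UMIs and 287 (7.47%) with at least 10, and the variance was 2.605 times the mean (2.19 to 3.67 over libraries). In wells listed as empty, 60 in number, 4 of 801 UMIs were of members, a share of 0.499% (95% exact interval 0.136% to 1.27%) that includes the 0.432% of the kept cells. The empty wells held 13.3 UMIs each, little beside the minimum of 500. This interval covers counting error only.

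The members as a whole were highest in histone-high cells and lowest in mitotic-high cells, in each of the 16 libraries. Their lowest, median and highest sums were 3272, 4076 and 4843 CPM in low cells, 4654, 5693 and 7333 CPM in histone-high cells, and 2071, 2859 and 3516 CPM in mitotic-high cells. The roles did not move alike. The licensing and helicase genes stood at 1097, 1412 and 1811 CPM in low and 1200, 1498 and 1818 CPM in histone-high cells, higher in 9 of 16 libraries, and at 409, 706 and 1133 CPM in mitotic-high cells, lower than low cells in 16 of 16. The polymerase and fork genes stood at 1323, 1572 and 1889 CPM in low and 1735, 2510 and 3333 CPM in histone-high cells, higher in 15 of 16, and at 800, 1209 and 1871 CPM in mitotic-high cells, lower than low cells in 14. The nucleotide genes stood at 409, 663 and 892 CPM in low, 613, 1301 and 1889 CPM in histone-high and 435, 676 and 838 CPM in mitotic-high cells. Histone-high cells were higher than low cells in 14 of 16 libraries for these genes, while mitotic-high cells were higher than low cells in 8 and lower in 7. The chromatin genes had medians of 280, 318 and 168 CPM in the 3 sets, and the cyclin and checkpoint genes 187, 211 and 112.5 CPM.

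**Figure D3:**
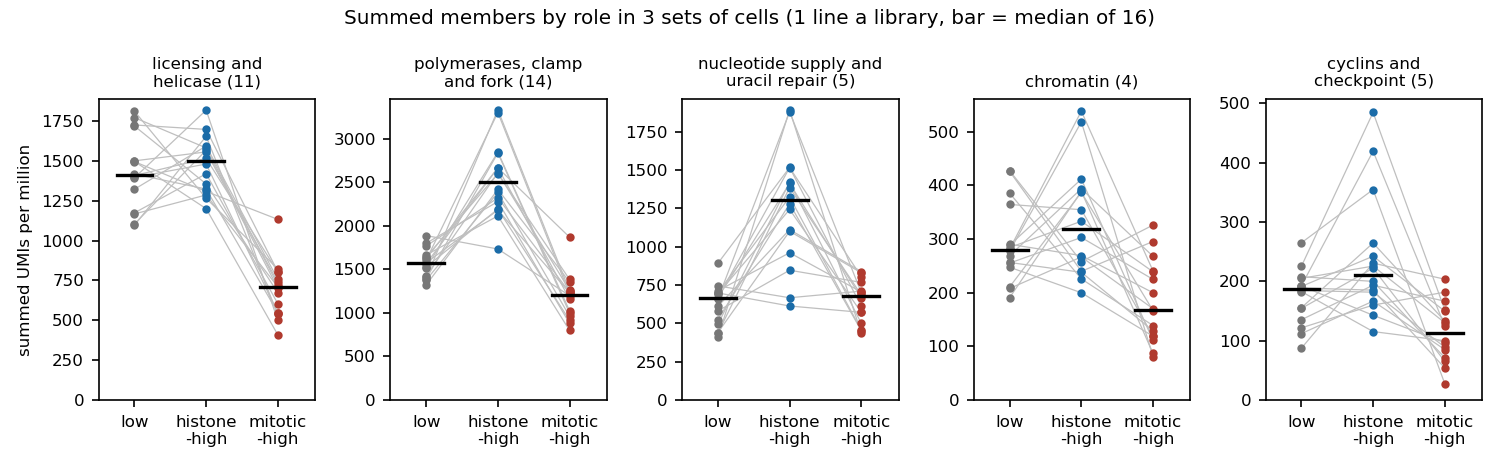
Summed level of each role's members, in CPM, in low, histone-high and mitotic-high cells. Points are libraries and the bars are medians. The licensing sums of low and histone-high cells overlap, and the nucleotide sums of low and mitotic-high cells overlap.

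Of the 37 members with at least 50 UMIs in the 3 sets, 31 had their highest pooled level in histone-high cells. Mcm2, Mcm6, Cdc45, Ung and Chaf1b were highest in low cells and Chek1 in mitotic-high cells. The lowest level was in mitotic-high cells for 28 members, in low cells for 8 and in histone-high cells for 1. The polymerase and fork genes were highest in histone-high cells in 14 of 14 cases, the licensing and helicase genes in 7 of 10. These orders are a description and were not tested. The same order was not counted over all genes, and the histone-high set held the fewest cells of the 3.

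The sets were tested with low cells as the common reference, so both comparisons share those cells. The TMM scaling factors differed between these sparse sums: with TMM the median log2 fold change of all genes was -0.32 in histone-high against low cells and -0.17 in mitotic-high against low cells, and with library totals it was -0.02 and 0.01. Values with library totals are therefore given beside those with TMM, and are close to changes relative to the median gene.

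In histone-high against low cells, the members that rose were the nucleotide genes Rrm1, Rrm2, Tyms and Dut, the sliding clamp gene Pcna and the flap endonuclease gene Fen1. Of 36 members tested, 6 rose and 3 fell by the edgeR quasi-likelihood test (Benjamini-Hochberg adjusted) (9 called, where 9.52% of 6007 genes were: 1.18% higher and 8.34% lower). With library totals 8 rose and 1 fell, where 3.15% of genes were called (136 higher and 53 lower, against 71 and 501 with TMM). With cells matched in total UMIs 3 rose and 0 fell of 28 tested, where 2.34% of genes were called. Within SB341 alone 6 rose and 1 fell of 30 tested (4.75% of genes called), and within SB343 alone 3 rose and 1 fell of 28 (2.03%). The edgeR filter filterByExpr kept 6 members, of which 3 rose, and 19.4% of its 741 genes were called. The members' median log2 fold change was 0.12 with TMM and 0.42 with library totals, above the all-gene medians. Pcna, Fen1 and Dut lost their calls without Hist1h2ao in the histone list, an alternative added after the data were seen. They also lost them at the 90th percentile, with cells thinned to 500 UMIs and within SB343 alone. Rrm1, Rrm2 and Tyms lost no call under these alternatives. Mcm7, Ccne1 and Ccne2 had too few UMIs to be tested.

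Rrm1 stood at 79.2, 148 and 187.5 CPM in low cells and at 95.2, 387 and 545.5 CPM in histone-high cells, and was higher in 14 of 16 libraries. It rose by 1.04 on the log2 scale (SE 0.17, adjusted p 1.03e-07), 1.34 with library totals and 1.06 in matched cells. Its partner Rrm2 stood at 11.1, 51.5 and 108 CPM and at 37.0, 157 and 333 CPM, higher in 15 of 16, and rose by 1.28 (SE 0.27, adjusted p 0.000102). In matched cells Rrm2 differed by 0.94 and did not pass (adjusted p 0.197). Tyms stood at 19.4, 68.0 and 231 CPM and at 64.5, 251 and 419 CPM, higher in 15 of 16, and rose by 1.33 (SE 0.23, adjusted p 1.65e-07), 1.64 with library totals and 1.26 in matched cells. In the edgeR quasi-likelihood test (Benjamini-Hochberg adjusted), the source of these p-values, Dut rose by 0.52 (SE 0.14, adjusted p 0.00244). Dut did not pass in matched cells (0.36, adjusted p 0.443). Both subunits of ribonucleotide reductase, thymidylate synthase and the dUTPase were thus called, 4 of the 5 nucleotide genes, while the fifth, Ung, fell.

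Ung went the other way from the rest of its role. It stood at 9.17, 80.04 and 125 CPM in low cells, with 129 UMIs in all. In histone-high cells it had 7 UMIs in all (15.4 CPM pooled), and 10 of 16 libraries had 0, where a count of 0 allows 88.2 to 167 CPM in a library's sum. It fell by 2.50 on the log2 scale (SE 0.46, adjusted p 2.62e-06 by edgeR's quasi-likelihood test), with a log2 fold change of -2.23 with library totals, and was lower in 15 of 16 libraries. In mitotic-high cells it had 9 UMIs (13.04 CPM pooled), 10 libraries had 0, and it fell by 2.62 (SE 0.41, adjusted p 9.58e-09), lower in 16 of 16. Ung had too few UMIs to be tested in matched histone-high cells, and in matched mitotic-high cells it fell by 2.38 (adjusted p 9.02e-05).

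Of the polymerase and fork genes, Pcna and Fen1 rose, 2 of 14 tested. Pcna stood at 219, 440 and 604 CPM in low and 412, 736 and 1160 CPM in histone-high cells, higher in 15 of 16 libraries, and rose by 0.51 (SE 0.11, adjusted p 4.97e-05 by edgeR's quasi-likelihood test), 0.82 with library totals and 0.53 in matched cells. Fen1 stood at 24.0, 83.9 and 206 CPM and at 120, 219 and 538.5 CPM, higher in 14 of 16, and rose by 1.02 (adjusted p 6.78e-05), while in matched cells it differed by 0.69 (adjusted p 0.209). With library totals Rfc4 (0.94, adjusted p 0.0316) and Tipin (0.72, adjusted p 0.0346) were called too. Pola1, Rfc4 and Pold1 had pooled levels of 76.9, 130 and 110 CPM in histone-high and 36.1, 64.8 and 65.4 CPM in low cells, with no call under TMM.

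The helicase genes did not rise with them. Mcm2 stood at 48.5, 163 and 239 CPM in low and 32.3, 110.0 and 278 CPM in histone-high cells, lower in 11 of 16 libraries, and fell by 0.75 with TMM (adjusted p 0.0152 by edgeR's quasi-likelihood test) but was not called with library totals (-0.45, adjusted p 0.415) or in matched cells (-0.80, adjusted p 0.198). Mcm6 stood at 282, 389 and 554 CPM and at 226, 386 and 630 CPM, lower in 8 of 16, and fell by 0.39 with TMM (adjusted p 0.0364) but not with library totals (-0.08, adjusted p 0.895) or in matched cells (-0.50, adjusted p 0.0986). Mcm3 and Mcm5 stood at medians of 238 and 219 CPM in low and 262 and 203 CPM in histone-high cells. Of the 4 chromatin genes and the 3 cyclin and checkpoint genes tested, 0 were called by edgeR and 0 by DESeq2, and 0 had an unadjusted p under 0.05 in edgeR.

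Of the pathway genes outside the members, Tk1, thymidine kinase, rose by 2.03 (adjusted p 1.45e-09 by edgeR's quasi-likelihood test) and the Pcna-binding Pclaf by 1.55 (adjusted p 6.12e-05). The G1 cyclin Ccnd2 fell by 1.04 (adjusted p 9.88e-10) and Myc by 1.02 (adjusted p 9.28e-08), and all of these kept their calls with library totals. In all, 3 rose and 0 fell of 43 other replication genes (Tk1, Rfc5 and Asf1b), 1 rose (E2f8) and 2 fell of 17 G1/S control genes, and 4 rose and 0 fell of 14 repair genes (Pclaf and Atad2 among them). Rfc5, Asf1b, E2f8 and Atad2 were named after their values were seen.

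**Figure D4:**
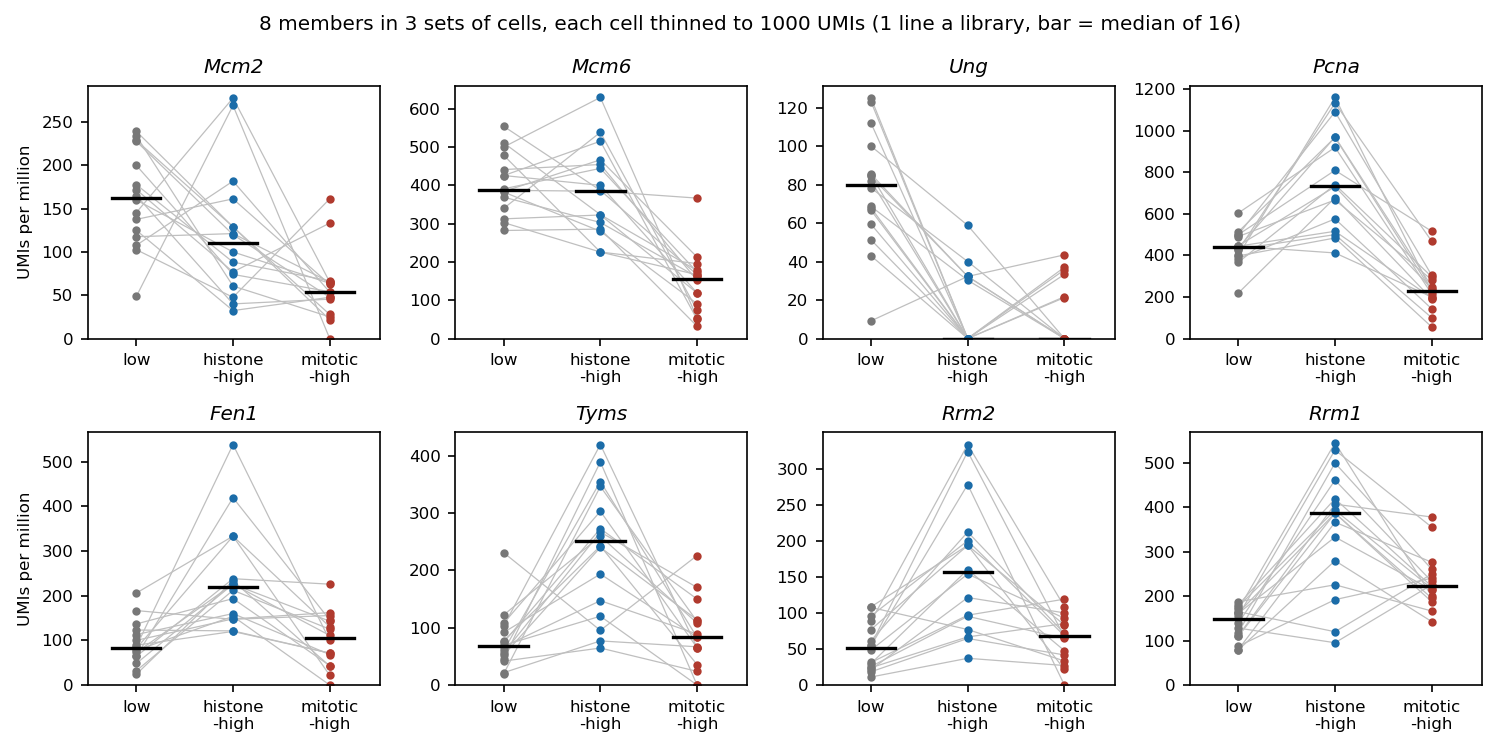
Levels of 8 members, in CPM, in low, histone-high and mitotic-high cells of each library, with medians as bars. Rrm1, Rrm2, Tyms, Fen1 and Pcna have their highest medians in histone-high cells, Ung is near 0 outside low cells, and Mcm6 and Mcm2 are lowest in mitotic-high cells.

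In mitotic-high against low cells, most of the helicase fell. Of 36 members tested, 15 fell and 1 rose by the edgeR quasi-likelihood test (Benjamini-Hochberg adjusted) (16 called, where 8.14% of 6521 genes were: 1.86% higher and 6.29% lower). With library totals 11 fell and 1 rose, where 4.59% of genes were called (177 higher and 122 lower, against 121 and 410 with TMM), and with cells matched in total UMIs 9 fell and 0 rose of 30 tested, where 4.01% were. Within SB341 alone 8 of 31 fell (4.42% of genes called), and within SB343 alone 6 of 27 (2.94%), with 0 higher in both. With filterByExpr 6 members were tested, of which 4 fell and 1 rose, and 18.8% of 910 genes were called. By role, 7 of 10 licensing and helicase genes fell, 4 of 14 polymerase and fork genes, 1 of 5 nucleotide genes, 2 of 4 chromatin genes and 1 of 3 cyclin and checkpoint genes. The members' median log2 fold change was -0.61 (-0.42 with library totals).

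Mcm6 stood at 282, 389 and 554 CPM in low and 32.3, 156 and 367 CPM in mitotic-high cells, lower in 16 of 16 libraries. It fell by 1.67 on the log2 scale (SE 0.15, adjusted p 1.79e-26), 1.48 with library totals and 1.81 in matched cells. Mcm3 stood at 138, 238 and 389 CPM and at 0, 120 and 179 CPM, also lower in 16 of 16, and fell by 1.21 (SE 0.18, adjusted p 1.37e-09). By the edgeR quasi-likelihood test (Benjamini-Hochberg adjusted), Mcm2 fell by 1.68 (adjusted p 2.72e-10), Mcm5 by 1.11 (adjusted p 4.64e-08) and Mcm4 by 0.99 (adjusted p 0.000291). The loading factor Cdt1 stood at 29.1, 68.6 and 136 CPM in low and 0, 24.4 and 135 CPM in mitotic-high cells, and fell by 1.44 (adjusted p 0.000418). The GINS subunit Gins2 fell by 1.04 with TMM (adjusted p 0.0397) but was not called with library totals (adjusted p 0.171). Mcm4 did not pass in matched cells (-0.73, adjusted p 0.204).

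Pcna fell by 1.03 (SE 0.13, adjusted p 9.36e-14 by edgeR's quasi-likelihood test), from 440 to 228 CPM at the library median, and was lower in 14 of 16 libraries. Lig1 fell by 1.21 (adjusted p 4.18e-05), from 114 to 65.9 CPM, lower in 15. Both kept their calls in matched cells, but Lig1 was not called within SB341 alone or within SB343 alone. Rfc2 (-0.62) and Tipin (-0.69) were called with TMM only. Of the chromatin genes, Hells fell by 1.05 (adjusted p 0.00237), and Chaf1b (-1.10) was called with TMM only, and Dtl fell by 1.13 (adjusted p 0.00319). Hells did not pass in matched cells (adjusted p 0.0789), and neither Hells nor Dtl was called within either batch alone. The polymerase subunits Pola1, Pold1 and Pole had pooled levels of 40.6, 69.6 and 47.8 CPM in mitotic-high and 36.1, 65.4 and 35.5 CPM in low cells, with no call.

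Rrm1 was the only member that rose in this comparison. It stood at 79.2, 148 and 187.5 CPM in low and 143, 224 and 378 CPM in mitotic-high cells, higher in 15 of 16 libraries, with a log2 fold change of 0.58 (SE 0.17, adjusted p 0.0105 by edgeR's quasi-likelihood test) and 0.77 with library totals. In matched cells it differed by 0.59 and did not pass (adjusted p 0.136), nor did it within either batch alone. Tyms (68.0 and 83.3 CPM at the medians of low and mitotic-high cells), Rrm2 (51.5 and 67.4) and Dut (280 and 236) were not called. Of the other pathway genes, Nasp, a histone chaperone, fell by 0.93 (adjusted p 0.000245), Ccnd2 by 0.99 and Myc by 1.02. Dbf4, the regulatory subunit of the kinase that fires origins, rose by 1.55 (adjusted p 0.000422). Of 41 other replication genes 2 rose (with Asf1b) and 3 fell (Nasp and Mcmbp among them), of 17 G1/S control genes 0 rose and 4 fell (with Ccnd1 and E2f1), and of 16 repair genes 0 rose and 2 fell (Msh6 and Casp8ap2). Asf1b, Mcmbp, Ccnd1, E2f1, Msh6 and Casp8ap2 were named after their values were seen, and Mcmbp, Ccnd1, Msh6 and Casp8ap2 were not called with library totals.

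**Figure D5:**
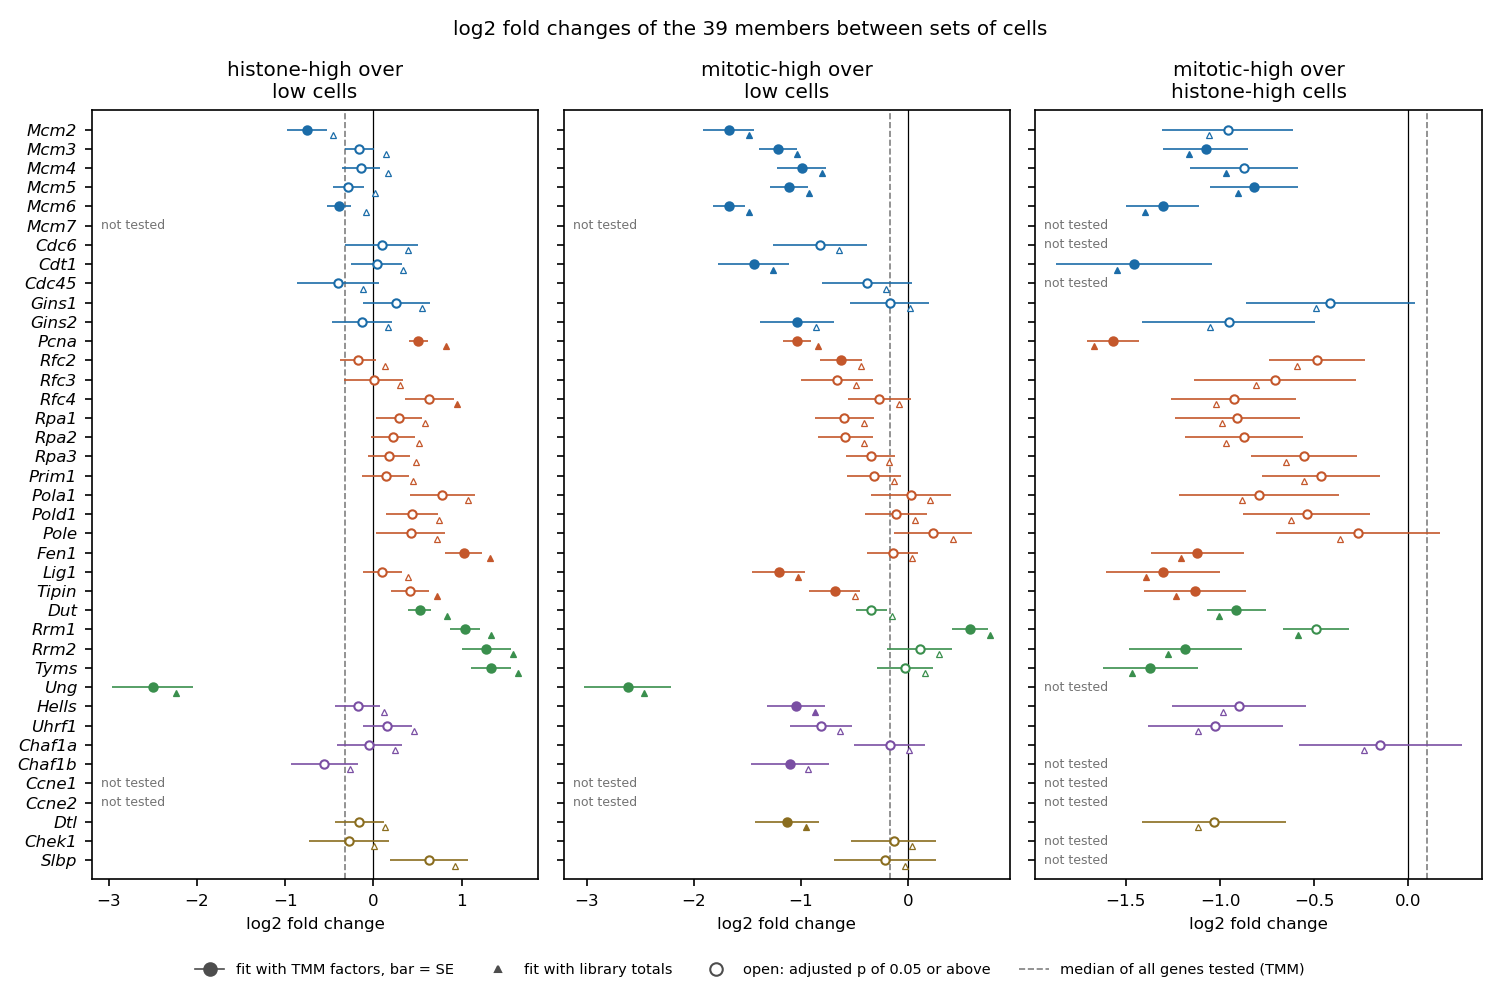
Log2 fold change of each member in the 3 comparisons of cycle sets. Circles are TMM-scaled values with their standard errors, triangles are values with library totals, open symbols have an adjusted p of 0.05 or more, and dashed lines mark the median of all genes. In mitotic-high against histone-high cells all 30 tested members lie below 0.

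Between the 2 high sets, which have nearly equal depth, the difference was in one direction. In mitotic-high against histone-high cells 11 of 30 tested members fell and 0 rose by the edgeR quasi-likelihood test (Benjamini-Hochberg adjusted), where 2.54% of 3815 genes were called (1.65% higher and 0.891% lower), and all 30 log2 fold changes were below 0 with TMM and with library totals (median -0.91, against 0.10 for all genes). With library totals 13 fell, where 2.25% of genes were called (32 higher and 54 lower, against 63 and 34 with TMM), and in matched cells 9 of 24, where 2.19% were. Within SB341 alone 8 of 19 fell (1.69% of genes called) and within SB343 alone 3 of 15 (0.982%). With filterByExpr 2 members were tested and both fell, and 11.1% of 415 genes were called. This comparison shares the histone-high and the mitotic-high cells with those above.

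Pcna stood at 412, 736 and 1160 CPM in histone-high and 55.6, 228 and 516 CPM in mitotic-high cells, lower in 16 of 16 libraries, and fell by 1.57 (SE 0.14, adjusted p 6.51e-26 by edgeR's quasi-likelihood test). Mcm6 (-1.305), Mcm3 (-1.08) and Tipin (-1.13) were lower in 16 of 16 libraries as well. Tyms (-1.37), Rrm2 (-1.18), Fen1 (-1.12) and Dut (-0.91), which had risen in histone-high cells, were called lower here, as were Cdt1 (-1.46), Lig1 (-1.30) and Mcm5 (-0.82). Rrm1 was not called with TMM and fell by 0.58 with library totals. Of 36 other replication genes 0 rose and 2 fell, Tk1 (-1.23) among them. Of 9 repair genes 0 rose and 2 fell, Pclaf (-1.43) among them, and of 10 G1/S control genes 0 were called by edgeR and 0 by DESeq2, with 0 at an unadjusted p under 0.05 in edgeR.

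Entries that share sequence with members were read as well. Mir25, inside Mcm7, was lower in mitotic-high cells than in low cells (-0.90, adjusted p 8.9e-07 by edgeR's quasi-likelihood test) and than in histone-high cells (-0.93), while Mcm7 itself had 13, 6 and 5 UMIs in low, histone-high and mitotic-high cells. Pcna-ps2 was lower in mitotic-high cells as well (-1.09 against low and -1.47 against histone-high cells). Their part in the Mcm7 and Pcna counts was not tested.

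Across the thinned cells, members varied together only weakly. Within libraries, the Pearson correlation of a member with the sum of the other members averaged 0.28 for Pcna, 0.22 for Dut, 0.21 for Mcm6 and 0.20 for Rrm2, and 0.03 for Slbp and Chek1, the lowest (3840 cells of 16 libraries, mean of the values within a library). Correlations of this size in sparse counts describe the cells and are no finding, and all points share the fixed total of 1000 UMIs. Role sums of licensing and polymerase genes had a mean correlation of 0.26. With the mitotic sum the licensing genes had -0.18 and the nucleotide genes 0.02. With the histone sum the licensing genes had -0.02 and the nucleotide genes 0.16. The summed members had 0.11 with the histone sum and -0.13 with the mitotic sum. The histone and mitotic sums had 0.35 with each other, so the histone list followed the mitotic list more than the members.

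Of 6345 genes outside the member and gate lists, the 15 most correlated with the summed members began with Gm23248 (mean correlation 0.22, above 0 in 16 of 16 libraries), an snRNA entry at chr9:65900201-65900308 on the + strand that lies within Pclaf on the same strand. Mif followed at 0.195, then the tubulin Tuba1b at 0.19, Mir25 at 0.18 and Pcna-ps2 at 0.17. Hnrnpab, Snord14d (within Hspa8), Hsp90aa1, Ptma, Siva1, Pclaf, Nasp, Paics and Syce2 were also among the 15, down to 0.14. Gm23248 stood at 27.5, 61.1 and 108 CPM in low, 143, 258 and 500 CPM in histone-high and 0, 77.4 and 194 CPM in mitotic-high cells. It was higher in histone-high than low cells in 16 of 16 libraries, with a log2 fold change of 1.93 (adjusted p 4.1e-16 by edgeR's quasi-likelihood test). Gm23248 was picked by its correlation with the members in these same cells, so this test is not independent of that choice.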

How the data were processed

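The count files hold UMI counts per gene and well as the authors deposited them. Per the submitters' processing notes, reads were demultiplexed with bcl2fastq 2.15.0.4 and the build was mm10. The aligner, counter, annotation and strand setting were not given in the sources used here. Of 6144 wells, 5760 are in the well table. The 92 spike-in entries were left out, and no doublet caller was run, since the well table lists at most 1 cell per well. Value columns of other samples were 0 in number.

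Counts were summed per library, or per library and set of cells, and tested with edgeR 4.0.16 (quasi-likelihood, TMM factors, library as a block within libraries, genes with at least 50 UMIs, R 4.3.3), with Benjamini-Hochberg adjustment over all genes at 0.05. DESeq2 1.42.0 and library totals were alternatives. The sets of the cell cycle comparisons were summed from cells thinned to 1000 UMIs. Other steps used Python 3.11.15, numpy 2.4.6, pandas 2.3.3, scipy 1.17.1 and matplotlib 3.10.9. Positions came from a GENCODE annotation of the same build, promoters from RefSeq. The scripts were tested on simulated counts with a fixed dispersion and 200 changed genes. In these, 4-fold changes were recovered for 78% to 97% and 2-fold changes for 37% to 67%, by comparison.

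The members and lists were chosen with earlier results of these data known. Named besides the members were the 5 genes with the smallest p among those called in the 3 pathway lists, in each of 8 comparisons, and the 15 genes most correlated with the members. Other names are marked where they stand, and some genes that this rule names are not reported here. Per-library intervals and limits cover counting error only.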

Additional observations from a re-analysis of the deposited data

Results flagged for a closer look

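In 6 of 80 groups (a member or the members' sum within a sequencing batch), 1 library lay far from the others by Dixon's criterion, which chance alone meets in about 1 of 20 groups. Within SB341, the highest library stood at 177.4 CPM for Mcm2 (the next at 140.6), at 93.84 CPM for Gins1 (next 55.08), at 80.99 CPM for Chaf1a (next 57.18) and at 24.26 CPM for Ccne1 (next 9.069). The lowest SB341 library stood at 386 CPM for Pcna, below the next at 501.9. Within SB343, the highest library stood at 146.7 CPM for Tipin (next 114.8).

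In the 60 wells listed as empty, which entered no comparison, 4 of 801 UMIs belonged to members.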

How the results depend on the processing

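The summed level of the members per library, 4290 CPM at the median, was 4815 with mitochondrial genes left out of the total. Counts of called members changed by over 1.5 times as follows. With filterByExpr in place of the minimum of 50 UMIs they were 1 of 37 tested in place of 2 of 39 between batches, 3 of 6 in place of 9 of 36 in histone-high against low cells, 5 of 6 in place of 16 of 36 in mitotic-high against low cells and 2 of 2 in place of 11 of 30 in mitotic-high against histone-high cells. That filter tested 8017, 741, 910 and 415 genes and called 1009, 144, 171 and 46 of them. Between batches it did not test Mcm7. Within SB343 alone the last 3 were 4, 6 and 3, and within SB341 alone mitotic-high against low cells gave 8. With cells thinned to 500 UMIs, 1 was called between batches, where Mcm7 was not tested, and 1 in mitotic-high against histone-high cells. Without matching of total UMIs, 2 were called in granule- against stem-gated cells, in place of 0. Alternatives chosen after seeing the data gave 3 and 9 called in histone-high and mitotic-high against low cells matched in total UMIs, and 5 in mitotic-high against histone-high cells without Hist1h2ao. The 90th percentile gave 6 in the last comparison.

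With each library left out in turn, 2 to 3 members were called between batches, 0 to 0 between lineage gates, 8 to 9 in histone-high against low, 13 to 16 in mitotic-high against low and 10 to 12 in mitotic-high against histone-high cells. Without the library as a replicate block, 0 were called between lineage gates and 8, 13 and 12 in the 3 comparisons of cycle sets, so the block changed no count by over 1.5 times. Over all genes, alternatives gave 573 to 1548 calls between batches, 53 to 942 in histone-high against low, 85 to 819 in mitotic-high against low and 14 to 105 in mitotic-high against histone-high cells. No called member changed direction under any alternative run. Of the called members, Tipin lost its call in mitotic-high against low cells under 19 of 29 alternatives, Gins2 under 18 of 28, Chaf1b under 16 of 29 and Rfc2 under 12 of 29, and Mcm6 and Mcm2 lost theirs in histone-high against low cells under 11 of 30 and 7 of 29. In histone-high against low cells, Pcna lost its call under 4 of 30, Fen1 under 5 of 29 and Dut under 6 of 30. In mitotic-high against histone-high cells, Mcm5 lost its call under 9 of 29 and Cdt1 under 7 of 24. The causes were not tested. With at least 20 cells per sum, or at least 3 UMIs of a gate's markers, megakaryocyte-erythroid- against stem-gated cells gave no sums.

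Genotype was not analysed here. Most members have few UMIs in a set of cells, so a member that did not pass is not shown to be equal. Mcm7, Ccne1 and Ccne2 were too sparse to test by cycle set.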
